A study of Drosophila melanogaster with 2 samples.

Results

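The Hox and segmentation genes are the regulators that lay out the body axis of the Drosophila embryo. A fixed list of 33 of them was examined for binding of the transcription factor Ovo, out of 13945 protein-coding genes annotated by Ensembl (release 115) on the 6 chromosome arms. Members were listed by name, with earlier results of these data known. All 33 were found, with h listed in the annotation under its newer symbol hry. They comprise 8 Hox genes (lab, pb, Dfd, Scr, Antp, Ubx, abd-A and Abd-B), 7 genes of the gap class with cad (hb, Kr, kni, gt, tll, hkb and cad), 3 head gap genes (oc, ems and btd), 8 pair-rule genes (ftz, eve, prd, odd, slp1, slp2, run and h), 5 segment polarity genes (en, inv, wg, hh and gsb) and 2 mesoderm genes (sna and twi).

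In the embryo these genes act as a cascade. Maternal products set up gap gene domains, gap proteins position the pair-rule stripes, pair-rule proteins switch on the segment polarity genes in each segment, and the Hox proteins then give the segments their identities. Most members are first needed after fertilisation, whereas hb and cad are also transcribed in the germline and their mRNAs are loaded into the egg. The Hox genes stand in the Antennapedia and bithorax complexes, long stretches of regulatory DNA that Polycomb proteins keep repressed in many tissues. Ovo is a zinc-finger protein required in the female germline, and the same locus also encodes the somatic protein Shavenbaby, which has the same zinc fingers.

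Chromatin was taken from whole adult female flies, of unknown age, of a single transgenic line that makes Ovo fused to GFP at its C terminus, and was precipitated with an antibody to GFP (ChIP-seq). The data form 1 group of 2 biological replicates, numbered 1 and 4, so no treated and control groups could be compared and no test between conditions was possible. The promoter that drives the transgene is not given in the sources used here. Whole flies mix ovary and somatic tissue, and neither gene activity nor the tissue in which a peak arose was measured. The deposited peak lists on the build dm6 were used: a thresholded list of 4477 peaks made from both replicates, a pooled list of 30000 peaks and background called on the reads of both, and a list of 30000 for each replicate. A peak's score is the authors' enrichment value against the control and its rank is its place by score within its own list. Thresholded scores ran from 74.9 to 1349 with a median of 116. Read depth is unknown.

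The sequences around the summits that the results turn on are shown first. Each is the plus strand of dm6 from 50 bp before to 50 bp after a thresholded summit (the position of highest signal), read from Release 6 of the genome. The first group holds the 3 summits near members that contain the Ovo core site, TAACNGT on either strand, and whose nearest protein-coding gene, or the gene they adjoin, is a member. Capitals mark that site, and in the h window also the GAGA factor site GAGAG on either strand. The windows lie at chrX:8624927-8625027 (beyond the end of oc), chr2L:20783225-20783325 (beyond the end of cad) and chr3L:8672952-8673052 (upstream of h).
oc downstream: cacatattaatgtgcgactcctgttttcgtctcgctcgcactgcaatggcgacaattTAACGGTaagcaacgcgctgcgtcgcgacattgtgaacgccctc
cad downstream: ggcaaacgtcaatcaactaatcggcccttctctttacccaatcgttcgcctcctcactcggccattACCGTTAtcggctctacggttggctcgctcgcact
h upstream: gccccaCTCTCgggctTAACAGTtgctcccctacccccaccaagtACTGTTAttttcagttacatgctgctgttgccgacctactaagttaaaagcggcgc

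The second group holds 4 of the 5 promoter summits of members, none of which has the Ovo core site; that of h lies in its 5′ UTR and is not printed. Here capitals mark GAGAG on either strand, which is present at oc, btd and hb and absent at cad. It is also absent from the h window that is not printed. Of all thresholded promoter summits, 16.1% have it. They lie at chrX:8650971-8651071 (oc), chrX:9693899-9693999 (btd), chr3R:8697982-8698082 (hb) and chr2L:20770550-20770650 (cad).
oc promoter: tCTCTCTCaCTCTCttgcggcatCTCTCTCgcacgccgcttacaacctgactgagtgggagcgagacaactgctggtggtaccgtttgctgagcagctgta
btd promoter: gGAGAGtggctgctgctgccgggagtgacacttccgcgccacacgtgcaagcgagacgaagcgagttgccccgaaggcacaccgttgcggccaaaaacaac
hb promoter: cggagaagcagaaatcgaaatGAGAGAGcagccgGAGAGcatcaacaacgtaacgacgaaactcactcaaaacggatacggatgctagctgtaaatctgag
cad promoter: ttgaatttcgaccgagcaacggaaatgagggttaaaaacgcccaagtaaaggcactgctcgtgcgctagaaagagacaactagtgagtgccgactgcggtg

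A minority of the members, as of all genes, carried a thresholded Ovo-GFP peak at the promoter. A summit lay within 500 bp of a transcription start site (TSS) in 5 of the 33 (15.2%), against 23.5% of all protein-coding genes. These were cad, hb, oc, btd and h. In the gene body a thresholded summit was found in 5 of 33 (15.2%), namely Antp, Abd-B, cad, h and twi, against 13% of all genes. Counting summits in the gene or within 10 kb of either end, 10 of 33 members had one (30.3%), against 62.2% of all genes. The promoter and 10 kb shares were thus lower than those of all genes and the body share was not, with no test made. When any base of the peak was counted in place of the summit, the body share was 6 of 33 (18.2%), against 23.9% of all genes. The promoter counts are small. Among genes with no other TSS in or within 10 kb the members' promoter share was the higher one, at 12.5% against 7.09%.

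The members stand in sparsely populated surroundings. A median of 1 other protein-coding gene had a TSS in or within 10 kb of a member, against 5 for all genes, and 30 of the 33 members had fewer than that median. No such neighbour existed for 16 members, a situation found for 4.65% of all genes. Among those 16 members, 2 had a thresholded summit within 10 kb (12.5%, oc and h), against 12.9% of the 649 genes without a neighbour, and the same 2 had one at the promoter, against 7.09%. Among the 17 members with a neighbour, 8 had a summit within 10 kb (47.1%), against 64.6% of the genes with one. When summits within 500 bp of the TSS of another gene were left out, 7 members kept one (21.2%), against 29.5% of all genes. The members' 10 kb share was thus close to the background among genes without neighbours and lower in both other comparisons, and the part of neighbouring genes in the low share was not tested.

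**Figure D1:**
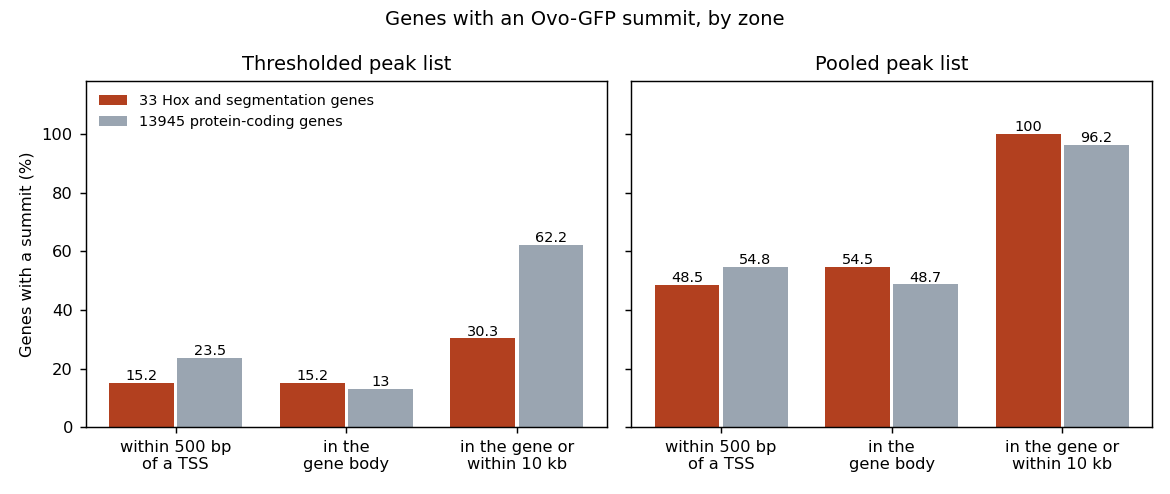
Percentage of genes (vertical axis) with at least 1 Ovo-GFP summit in each zone, for the 33 Hox and segmentation genes (left bar of each pair) and all 13945 protein-coding genes (right bar), in the thresholded list (left) and the pooled list (right). The clearest gap is in the 10 kb zone of the thresholded list, at 30.3% against 62.2%.

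The promoter peaks that members did have were not shared with neighbours. All 5 promoter summits lay within 500 bp of no other protein-coding gene, so 15.2% of the members had an unshared promoter summit, against 10.8% of all genes. Of all genes with a promoter summit, 45.7% had an unshared one. A shared summit was not possible at oc and h, which have no other protein-coding TSS in or within 10 kb. hb, cad and btd have 1 such neighbour each, so the unshared summits partly restate the sparse surroundings. On the X chromosome 2 of 4 members had a promoter summit (oc and btd but not gt or run), where 28.6% of all X-linked genes did, and on the autosomes 3 of 29 did (10.3%), against 22.6% of all autosomal genes.

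By class, promoter summits were found at 2 of 7 genes of the gap class with cad, 2 of 3 head gap genes and 1 of 8 pair-rule genes. The 8 Hox genes, 5 segment polarity genes and 2 mesoderm genes had none. The share over all protein-coding genes was 23.5%. These are small numbers, and the classes were not tested against each other or against all genes. Both maternally supplied members, hb and cad, had a promoter summit, against 3 of the 31 other members (9.68%) and 23.5% of all genes. The maternal group is only 2 genes, so its share sets it apart from neither. Without replicate 1 hb had none, and with a window of 100 bp or the 1000 strongest peaks neither gene had one.

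cad encodes a homeodomain protein that specifies the posterior of the embryo, and it had the most thresholded summits near it together with btd, 5 each. Its promoter peak (chr2L:20770380-20770819) had a score of 95.1 and rank 3145, and in the replicates it stood at rank 3407 (score 41.3, replicate 1) and 3641 (score 49.7, replicate 4). The summit lay 131 bp upstream of the nearer of 2 annotated TSSs. A stronger peak stood at the other end of the gene, 140 bp beyond its last base (chr2L:20783055-20783494, score 220.1, rank 614), with the Ovo core site at 20783291 to 20783297 as printed above. It ranked 1333 in replicate 1 (score 69.7) and 379 in replicate 4 (score 151). The nearest TSS was that of cad's neighbour Pomp, a proteasome assembly factor, 4381 bp away. A further summit fell in a cad intron (score 104.5, rank 2699). The other 2 summits within 10 kb, including the strongest (score 252.8, rank 417), were in the 3′ UTR of the upstream neighbour dia, which encodes a formin of the cytoskeleton. That strongest one ranked 520 in replicate 1 (score 105) and 478 in replicate 4 (score 140), and the other, with a score of 136.1, ranked 1647 in replicate 1 (score 62.2) and 2546 in replicate 4 (score 61.8). At cad the strongest signal was therefore at its edges and in its neighbour, not at its TSS.

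hb encodes the zinc-finger gap protein of the anterior embryo and is transcribed from a distal and a proximal promoter, the distal of which is known as the maternal one. Its thresholded peak (chr3R:8697812-8698251) had its summit 210 bp upstream of the distal TSS at 8697822. With a score of 76.8 and rank 4321 it stood near the end of the thresholded list. The matching summit ranked 4481 in replicate 1 (score 34.5) and 6283 in replicate 4 (score 33.5), outside the first 4477 of either list. In replicate 1 another summit, 355 bp inside the gene from the distal TSS, ranked 3989 and brought hb into that list. By pooled rank the hb peak was the weakest of the 5.

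oc, the orthodenticle gene of head patterning, had the strongest promoter peak of any member (chrX:8650801-8651240, score 189.8, rank 879). Its ranks were 895 in replicate 1 (score 84.5) and 951 in replicate 4 (score 105), close to each other. The summit lay 340 bp upstream of the first TSS. The strongest summit near any member was also that of oc, 5182 bp beyond the end of the gene and outside protein-coding genes (chrX:8624757-8625196, score 261.4, rank 386). It ranked 565 in replicate 1 (score 101) and 353 in replicate 4 (score 154), and had the Ovo core site at 8624984 to 8624990. No other protein-coding gene has a TSS in or within 10 kb of oc. The nearest protein-coding TSS to both summits was one of oc, 18199 bp away for the summit beyond the gene end.

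btd, a zinc-finger gene of the head and antennal segments, had a promoter peak at chrX:9693729-9694168 with a score of 92 and rank 3307, its summit 237 bp upstream of the TSS. The replicates differed here, at 6148 by rank in replicate 1 (score 27.7) and 2367 in replicate 4 (score 64.3). The other 4 summits within 10 kb, with scores from 122.2 to 221.3, were upstream and nearest to nej, the gene of the histone acetyltransferase CBP. The strongest lay 759 bp upstream of a nej TSS and ranked 959 in replicate 1 (score 81.9) and 411 in replicate 4 (score 147). The remaining 3 were in nej introns. Those with scores of 181.3 and 145.2 were also at a nej promoter, 309 and 89 bp upstream of a nej TSS. They ranked 619 and 2333 in replicate 1 and 1533 and 1189 in replicate 4. Only the promoter summit was thus nearest to btd.

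h (hairy), a repressor of the helix-loop-helix family that patterns pair-rule stripes, had a promoter peak whose summit lay in its 5′ UTR, 96 bp upstream of the second of its TSSs (chr3L:8675639-8676078, score 80.4, rank 4048). It ranked 3809 in replicate 1 (score 38.3), and the matching summit in replicate 4 had a score of 46.2 and rank 4054. A stronger peak stood 2757 bp upstream of the first TSS (chr3L:8672782-8673221, score 152.7, rank 1364). It ranked 1672 in replicate 1 (score 61.6) and 1321 in replicate 4 (score 89.3), and its window holds the core site on both strands. A further summit lay 5646 bp beyond the end of the gene (score 144.9, rank 1532), placed 1946 in replicate 1 (score 56.3) and 1443 in replicate 4 (score 85.3). Like oc, h has no other protein-coding TSS in or within 10 kb.

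**Figure D2:**
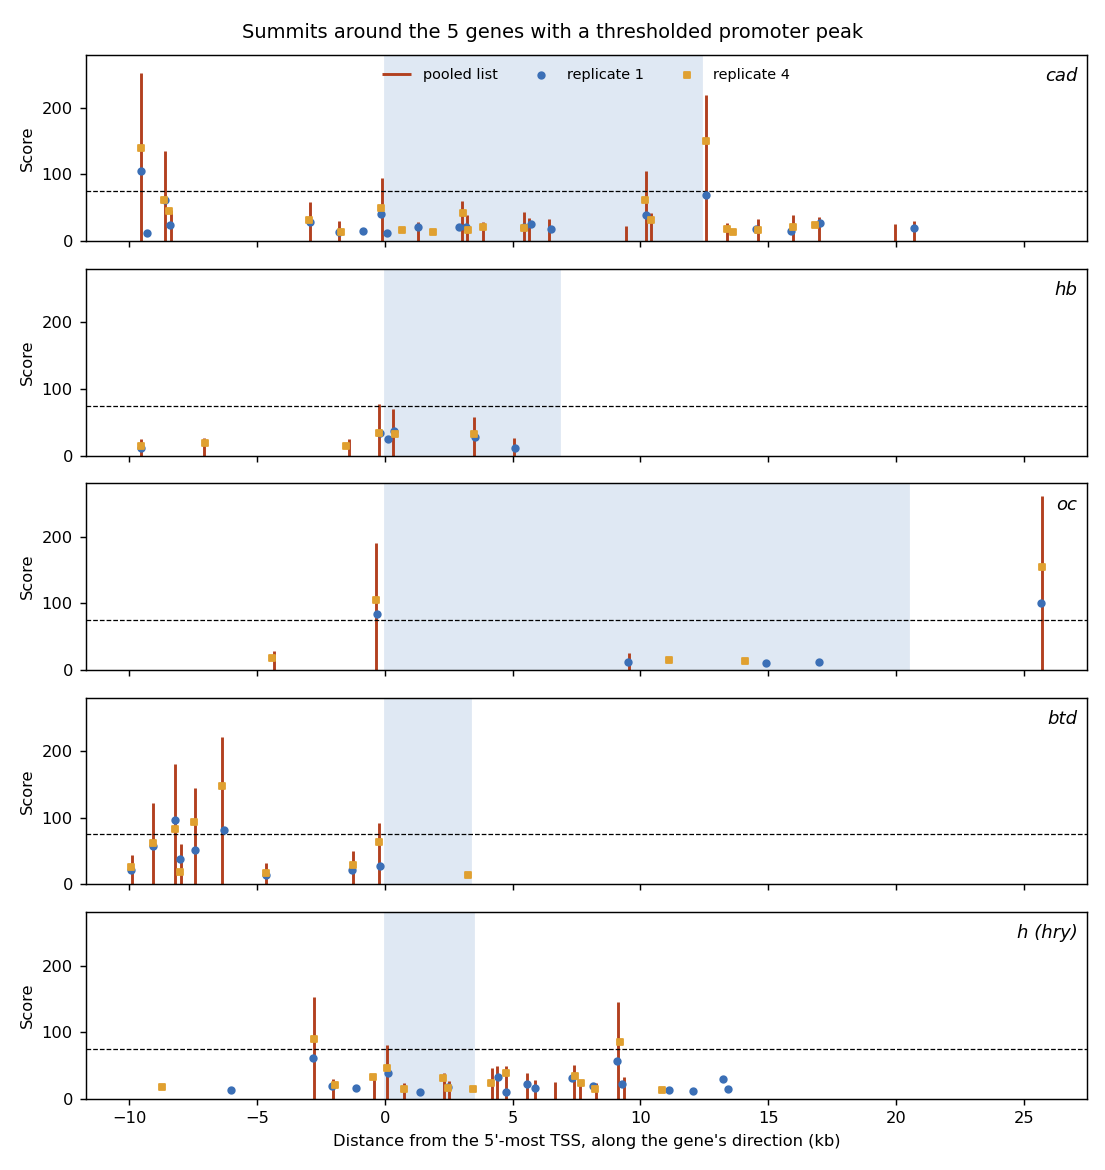
Score (vertical axis) of the summits in or within 10 kb of the 5 genes with a thresholded promoter peak, against distance in kb from the 5′-most TSS along the direction of the gene. Lines are summits of the pooled list, circles and squares those of replicate 1 and replicate 4 on their own lists' scale, shading is the gene, and the dashed line is the lowest thresholded score of 74.9; at cad, oc, btd and h a flanking summit is higher than that at the promoter.

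The Hox genes had no thresholded promoter summit (0 of 8, against 23.5% of all genes). In the gene or within 10 kb, 4 of 8 had a thresholded summit (50%), against 62.2% of all genes. With 8 genes these shares are coarse, and they were not tested. At lab, an anterior Hox gene, the 2 summits lay 3734 and 3934 bp outside the gene at the shared promoter of CG1307 and twr. The stronger of them (score 181.2, rank 972) ranked 1715 in replicate 1 (score 60.5) and 566 in replicate 4 (score 129). At Ubx, which specifies the posterior thorax, the summit lay 9369 bp outside the gene at the promoters of CCT3 and CG10324. Antp and Abd-B had a summit in the gene itself, both intronic and that of Antp also within an intron of CG46458. That of Antp, the gene of thoracic identity (chr3R:6912769-6913208), scored 121.6 (rank 2077), stood at rank 3830 in replicate 1 (score 38.2) and at 1624 in replicate 4 (score 80.5), and lay 19851 bp from the nearest Antp TSS. That of Abd-B, the most posterior Hox gene (chr3R:16969944-16970383), scored 98.7 (rank 2970), stood at rank 4069 in replicate 1 (score 36.7) and at 2744 in replicate 4 (score 59.2), and lay 1590 bp upstream of one of 6 annotated TSSs. Neither window held the core site.

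The body counts were also set beside those of long genes. Of the 9 members of 20 kb or more, 3 had a thresholded summit in the body (33.3%, Antp, Abd-B and twi), against 39.4% of all genes of that length. Over all members there were 0.911 thresholded summits per 100 kb of body, against 3.15 over all genes, and 16.2 pooled summits per 100 kb, against 24.5. The long members without a thresholded body summit were pb, Scr, Ubx, abd-A, oc and inv.

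Both Hox complexes held fewer summits per Mb than their arm. The Antennapedia complex, taken from the end of lab to the start of Antp (338 kb, 3R, 6661427 to 6999228), held 2 thresholded summits, or 5.92 per Mb. The bithorax complex, from Ubx to Abd-B (316 kb, 3R, 16656623 to 16972236), held 3, or 9.51 per Mb. The whole of arm 3R had 32.2 per Mb. In the pooled list the densities were 145 per Mb in the Antennapedia complex and 101 per Mb in the bithorax complex, against 223 on 3R. The complexes were thus below their arm in both lists, and more so among thresholded summits. Genes are also sparse there. The Antennapedia complex holds 20 protein-coding genes with a TSS and the bithorax complex 6, against 13945 genes on the 6 arms (133881 kb). The part of gene density in the low summit density was not tested.

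Within the Antennapedia complex the summit other than that of Antp was at the promoter of bcd (score 89.8, rank 3417), the gene of the maternal anterior determinant, which is not among the members. It ranked 3425 in replicate 1 (score 41.2) and 4028 in replicate 4 (score 46.4), and its summit lay 117 bp upstream of the TSS. The strongest summit of either complex was in the bithorax complex (chr3R:16764020-16764459, score 165, rank 1186), 29814 bp upstream of the Ubx TSS and within the non-coding gene lncRNA:bxd, which covers part of the regulatory DNA of Ubx. It ranked 1725 in replicate 1 (score 60.3) and 991 in replicate 4 (score 102), and its window held GAGAG but no Ovo core site. The third bithorax summit (score 75.8, rank 4396) lay in an intron of MSAmiP within lncRNA:iab8, between abd-A and Abd-B, and was far apart in the replicates, at rank 8365 in replicate 1 and 3063 in replicate 4.

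**Figure D3:**
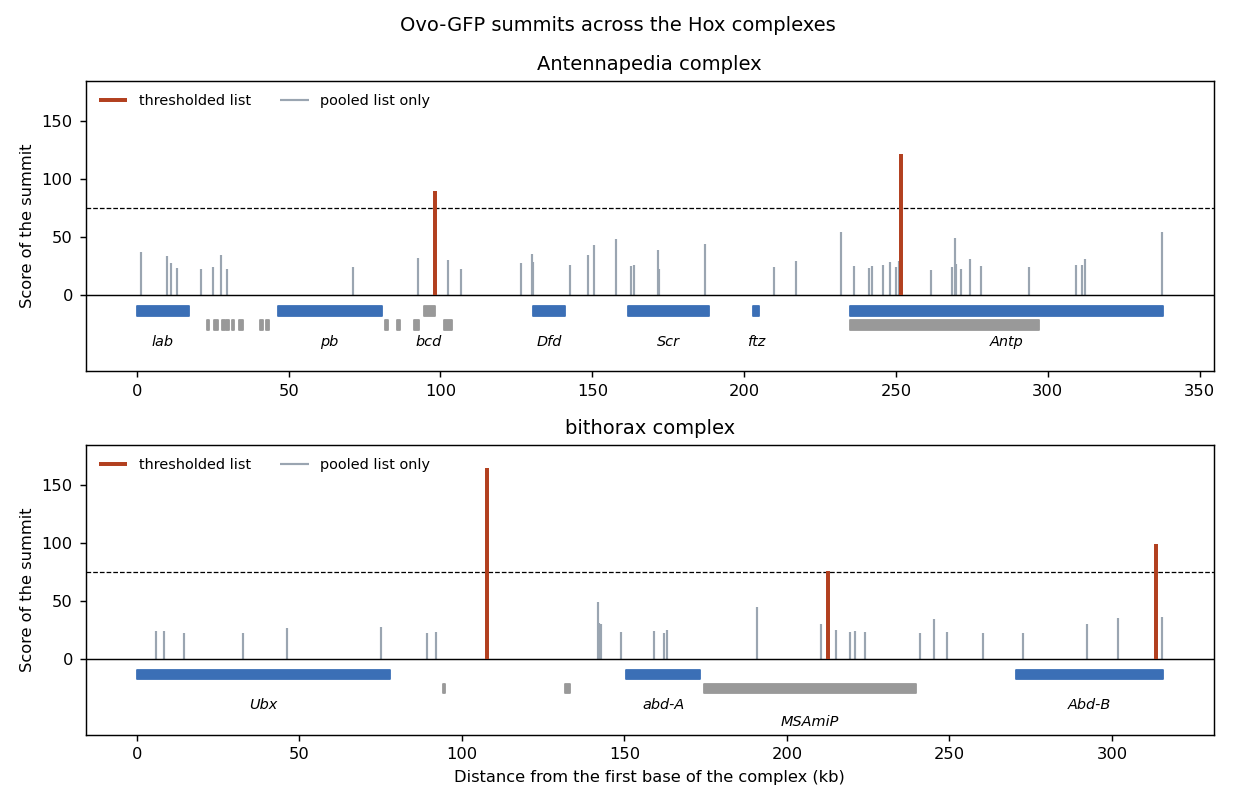
Scores (vertical axis) of thresholded summits and of those in the pooled list only, against distance in kb from the first base of the Antennapedia complex (top) and the bithorax complex (bottom). Blue bars are member genes, grey bars other protein-coding genes and the dashed line is the lowest thresholded score; 2 summits in the upper complex and 3 in the lower one reach it.

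In the pooled list, which includes background, 16 of 33 members had a promoter summit (48.5%), against 54.8% of all genes. A summit in the body was found for 18 (54.5%), against 48.7%, and within 10 kb for all 33, against 96.2%. Over the members' bodies and 10 kb flanks the pooled list held 220 distinct summits, of which 22 (10%) were in the thresholded list, against 14.9% of all pooled peaks. The 10 kb share was near that of all genes in a list that includes background, so it does not show signal at members. Of the pooled summits near members, a smaller part was in the thresholded list than of all pooled peaks, with no test made.

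The best promoter summits of the 11 members that were in the pooled list alone ranked from 6972 to 28491, with scores from 22.2 to 54.1. Antp came first (score 54.1, rank 6972), at 6004 in replicate 1 and 8683 in replicate 4. Next were inv, a partner of en in posterior compartments (score 49.5, rank 7873), hh, the Hedgehog ligand (score 47.2, rank 8368), and Scr, the Hox gene of the labium and first thoracic segment (score 43.8, rank 9249). inv ranked 16804 in replicate 1 and 6251 in replicate 4, and hh 17982 in replicate 1 and 7950 in replicate 4, so their place differed widely between replicates. The pair-rule gene odd ranked 11389, the gap gene kni 12174, Abd-B 12386 and Dfd, the Hox gene of the maxillary segment, 12659. The segment polarity genes en (rank 16887) and wg, the Wnt ligand (rank 18564), and the gap gene Kr (rank 28491) were last. Of the 5 segment polarity genes only gsb had no pooled promoter summit, and none of the 5 had a thresholded summit within 10 kb.

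No pooled promoter summit was found for 17 members. Among the pair-rule genes these were ftz, eve, prd, slp1, slp2 and run. Among the Hox genes they were lab, pb, Ubx and abd-A. The gap genes gt, tll and hkb, the head gap gene ems, the segment polarity gene gsb and the mesoderm genes sna and twi complete the list. The thresholded summit counted for twi, a helix-loop-helix regulator of mesoderm, had a score of 82.3 and rank 3918. It lay in an intron of the long annotated twi transcript, 13487 bp from the nearest twi TSS and 23 bp from the TSS of CG9896.

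**Figure D4:**
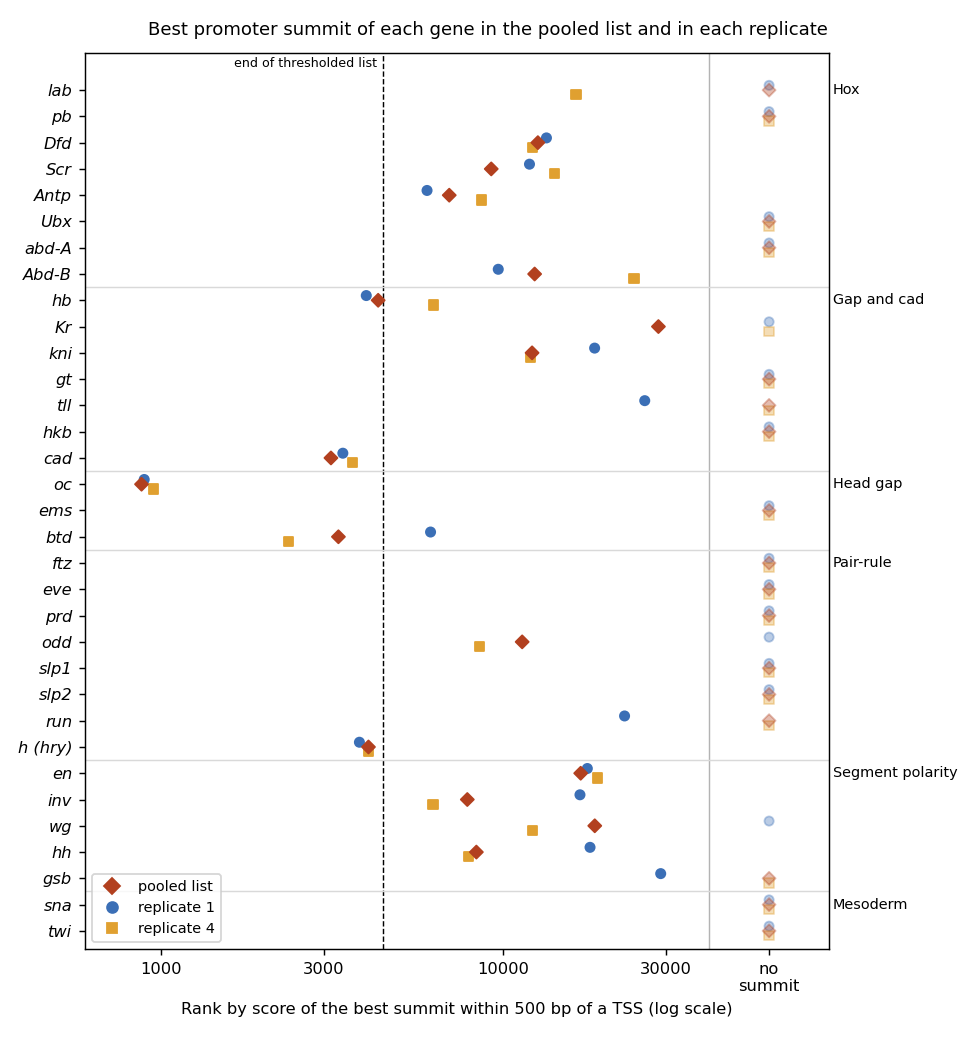
Rank by score (horizontal log axis, strongest at the left) of the best summit within 500 bp of a TSS of each of the 33 genes, in the pooled list (diamonds), replicate 1 (circles) and replicate 4 (squares), with faded symbols where a list has none. The diamonds of hb, cad, oc, btd and h lie left of the dashed line that ends the thresholded list at rank 4477.

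The replicates gave the same number of members with a promoter summit, but not all the same members. Among the 4477 peaks of highest score in replicate 1, 4 members had a promoter summit (12.1%, hb, cad, oc and h), against 22.7% of all genes. In those of replicate 4 there were also 4 (12.1%, cad, oc, btd and h), against 23.4%. The 3 members common to both were thus cad, oc and h. All 22 thresholded summits near members had a summit within 100 bp in each replicate's relaxed list, at ranks from 520 to 6148 in replicate 1 and from 353 to 6283 in replicate 4. The thresholded list was called on the reads of both replicates, so this presence is partly built in.

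Summits near members were of ordinary strength. Their scores ran from 76.8 to 261.4 with a median of 129, against a median of 116 for the thresholded list. Of the 22, 5 were at a member's promoter, 6 at the promoter of another gene only and 11 at no promoter (for all thresholded summits the share at no promoter was 36.3%).

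The Ovo core site was within 50 bp of 4 of the 22 summits (18.2%), against 14.5% of all thresholded summits and 2.88% of windows 500 bp to either side of them. The 4 were those beyond oc, beyond cad and upstream of h, printed above, and the summit at the shared promoter of CG1307 and twr near lab. None of the 5 member promoter summits had it, against 13.7% of all promoter summits. GAGAG was at 5 of the 22 (22.7%), against 18.2% of all and 12.9% of the windows 500 bp away. Of these, 3 were the promoter summits of hb, oc and btd, where 16.1% of all promoter summits had it. The Zelda site CAGGTAG and the E-box CACCTG bound by Snail were at 0 of the 22, against 0.424% and 3.91% of all summits. In the windows 500 bp away they stood at 0.614% and 4.12%, no lower than at summits.

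Most core sites in the DNA around the members, as in the genome, were not at a thresholded summit. The members with 10 kb either side held 324 matches to TAACNGT, or 2.73 per 10 kb, against 3.02 over the 6 arms. A thresholded summit lay within 50 bp of 5 of them (1.54%), against 1.92% of all matches in the genome. The Antennapedia complex held 96 matches and the bithorax complex 89, and none of either was at a thresholded summit, while 4 and 1 of them were at a pooled one (4.17% and 1.12%), against 4.57% genome-wide. Such a match is a stretch of letters and not a shown binding site.

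Sites in member promoters were set beside those of all genes only, not beside those of other developmental genes. In the window from 250 bp before to 50 bp after the 5′-most TSS, GAGAG on either strand was found in 28 of 33 members (84.8%), against 29.7% of 13945 genes. All Hox genes but Abd-B were among the 28. The Zelda site, bound by the factor that opens early embryonic enhancers, was in 6 of 33 (18.2%, gt, ftz, odd, slp1, h and sna), against 1.64%. The Ovo core site was in 1 of 33 (3.03%, run), against 13.4%, and the E-box CACCTG in 2 (6.06%, eve and twi), against 9.32%. The DRE, TATCGATA, a site of housekeeping promoters that was added after the other results were seen, was in 0 of 33, against 9.36%. None of these shares was tested.

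**Figure D5:**
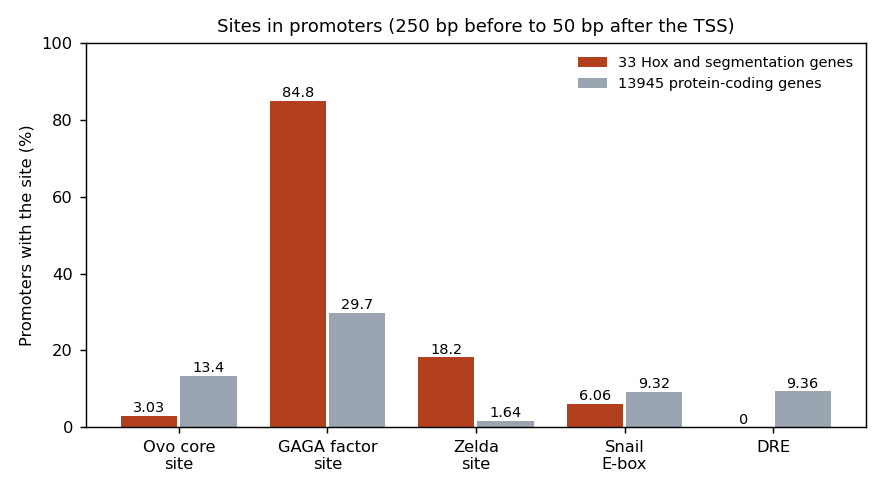
Percentage of promoters (vertical axis) with each site in the window from 250 bp before to 50 bp after the 5′-most TSS, for the 33 Hox and segmentation genes (left bars) and all 13945 protein-coding genes (right bars). The GAGA factor site stands at 84.8% against 29.7%, and the DRE at 0% against 9.36%.

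A list of 40 other genes of the same pathways, maternal, signalling and cofactor genes, was set beside the members. It was chosen with earlier results of these data known, so it is not an independent comparison. Of these, 16 had a thresholded promoter summit (40.0%), above the 23.5% of all genes. The maternal axis genes had 5 of 7 (71.4%): the anterior and posterior determinants bcd, nanos and osk, and the dorsoventral signalling genes tub and pll, but not tor or tsl of the terminal system. Wingless and Hedgehog signalling genes had 5 of 15 (33.3%), Hox cofactors and modifiers 2 of 5, other Hox-complex or pair-rule genes 1 of 6, and corepressors and terminal factors 3 of 7. At nanos, pll, exd, cos and wls the best promoter summit was also within 500 bp of another gene's TSS, whereas the promoter summits of members were unshared. That of exd had no matching summit in the list of either replicate. The members, at 5 of 33, were lower than this list, which was not tested.

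The 5 highest promoter peaks of that list were at cnc (score 608, rank 23), fkh (score 575, rank 33), tsh (score 275, rank 334), knrl (score 199, rank 792) and gro (score 186, rank 926). cnc and fkh, the cap'n'collar and forkhead genes of the head and the gut ends, were thus far above oc. They held their place in both replicates, cnc at rank 23 in replicate 1 and 33 in replicate 4, and fkh at rank 31 in replicate 1 and 37 in replicate 4. The core site was at the summits of cnc, of tsh, a trunk partner of the Hox proteins, and of knrl, the close relative and neighbour of kni, but not at those of fkh and gro. kni had no thresholded summit within 10 kb, whereas knrl had a promoter summit 173 bp upstream of its TSS, at rank 1131 in replicate 1 and 680 in replicate 4.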

How the data were processed

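The 8 deposited peak lists cover 2 biological replicates of 1 group; the 4 on dm6 were used and those on dm3 were not, because coordinates were not converted. According to a text record the authors deposited, relaxed lists of peaks and background were made against a control alignment, for each replicate and for both together, and the thresholded list came from them by the irreproducible discovery rate (IDR) procedure. The peak caller is not given in the sources used here. The value used is the score the authors deposited for each peak. The thresholded list equalled the 4477 highest-scoring pooled peaks. Genes and TSSs were those of Ensembl release 115; all 33 members had the same start and end in RefSeq on Release 6, the dm6 assembly. Summits were assigned to genes by distance in Python 3.11.15 with pandas 2.3.3, and counts were set beside the same counts over all protein-coding genes, with no test. A summit within 100 bp was taken as the same in a replicate. The counting was checked on planted positions. The members and lists were chosen with earlier results of these data known. Every member is named, with replicate values for thresholded promoter summits and for the 10 strongest others; those of Antp, Abd-B and of 3 further summits in the Hox complexes were added after their values were seen. Alternatives were other windows, peak lists, TSS choices and overlap. The number of reads behind a score is unknown, so no interval is given. The DRE and the promoter window were added after other results were seen. Biological replicates are samples of 1 line, and no untagged control was analysed here.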

Additional observations from a re-analysis of the deposited data

How the results depend on the processing

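Of 20 alternatives, 16 left the member counts within 1.5 times those reported, though the background beside them could move, as for body summits by any base of the peak (18.2% of members, against 23.9% of all genes). With the 1000 thresholded peaks of highest score, 1 member had a promoter summit (oc), 0 had a body summit and 4 had a summit in the gene or within 10 kb (lab, cad, oc and btd), where all genes stood at 6.19%, 3.94% and 25.7%; this list is shorter by construction. With a TSS window of 100 bp the promoter count was 1 (h), against 11.7% of all genes. Without replicate 1, 4 members had a promoter summit (12.1%), 4 a body summit (12.1%) and 8 one within 10 kb (24.2%). Over all genes these shares were 23.4%, 12.7% and 62.2%. Without replicate 4 the counts were 4 (12.1%), 6 (18.2%) and 11 (33.3%), against 22.7%, 13.4% and 61.3% of all genes. The promoter and 10 kb shares thus stayed below those of all genes, and the body share fell on either side. The summits with an Ovo core site numbered 4 in both cases. With the 1000 strongest peaks 3 of 7 summits near members had that site (42.9%), against 23.3% of all, where the full list gave 4 of 22 (18.2%) against 14.5%; the count is within 1.5 times but the share is not. hb lost its promoter call without replicate 1 and btd without replicate 4. No paired analysis was possible because there is 1 group. Read depth is unknown, so a member without a summit may have signal too weak for these lists.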

Other observations

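The Antennapedia complex also contains 14 protein-coding genes that are not members. Of these, bcd was the only 1 with a thresholded promoter summit, and 4 had a pooled one: bcd, the dorsal patterning gene zen (score 32.3, rank 14451), Ama, which encodes a secreted immunoglobulin-domain protein (score 30.5, rank 15979), and the cuticle gene Ccp84Ag (score 24.4, rank 23866). The other 6 Ccp84A cuticle genes, Edg84A, zen2, CG34297 and CG46458 had none in either list. The bithorax complex contains 3 such genes, Glut3, MSAmiP and CG31275, and none had a promoter summit in the thresholded or the pooled list. Over all protein-coding genes the promoter shares were 23.5% in the thresholded list and 54.8% in the pooled list. Both groups of genes are small, and neither was tested against these shares.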
